A study of Homo sapiens with 2 samples.

Results

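The replication-dependent histone genes of human HEK293T cells were described by class and by gene cluster from RNA-Seq. These genes code for the H1, H2A, H2B, H3 and H4 proteins of chromatin, and they were taken by name, as the protein-coding genes on chromosomes 1, 6 and 12 whose older symbols begin with HIST1H, HIST2H, HIST3H or HIST4H. The GRCh37 annotation held 67 of them, and 42 were tied by identifier to a row among the 57736 genes of the tables, so the levels below cover 42 genes and the other 25 were not analysed here. All 6 H1 genes were tied to a row, as were 13 of 17 H2A, 11 of 16 H2B, 7 of 14 H3 and 5 of 14 H4 genes, and sums over H3 and H4 are therefore sums over a part of each class. The genes not tied to a row were HIST2H2AA4, HIST1H2AB, HIST1H2AK and HIST1H2AL of the H2A class, HIST1H2BB, HIST1H2BE, HIST1H2BH, HIST1H2BM and HIST1H2BO of the H2B class, HIST1H3A, HIST1H3B, HIST1H3C, HIST1H3E, HIST1H3F, HIST1H3G and HIST1H3I of the H3 class, and HIST2H4A, HIST2H4B, HIST1H4A, HIST1H4D, HIST1H4E, HIST1H4G, HIST1H4I, HIST1H4K and HIST1H4L of the H4 class. A further 3 histone genes that RefSeq lists under such symbols, HIST1H2BF, HIST1H2BG and HIST1H4F, were not in this annotation.

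HEK293T is an established line from human embryonic kidney in which the large T antigen of SV40 is expressed. The series held 1 group of 2 libraries, labelled replicate 1 and replicate 2, from untreated cells labelled wild type. RNA with poly(A) tails was selected before sequencing. The libraries held 10593491 and 10104118 estimated counts, and with no second condition the comparisons were made between genes, between groups of genes and between the libraries. Nothing in the labels ties each library to a culture of its own, so the spread between the libraries may be technical. Of 15 genes that mark kidney cells and had a row, 4 were detected, namely SALL1 (TPM 22.2 and 25.2), WT1 (10.00 and 10.5), LRP2 (8.28 and 9.96) and PAX2 (4.34 and 2.47), while UMOD and the nephron transporter genes SLC34A1 and SLC12A3 had no counts.

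Replication-dependent histone mRNAs are the messages of S phase, when new DNA must be packed into nucleosomes. Their genes have no introns in the usual transcript, lie together in clusters, and give an mRNA that ends just past a short stem-loop in place of a poly(A) tail. The stem-loop binding protein SLBP and the U7 snRNP, with the nuclease CPSF3, cut the message there. Replication-independent histones such as H3.3 and H2A.Z have mRNAs with poly(A) tails and are made through the whole cell cycle.

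The stem-loop was the sequence that the genes shared, and it was read from the GRCh37 genome for every annotated member. A consensus of 16 bases, the same letters as the capitals printed for HIST1H1E, was searched for in the 200 bases after the stop codon with up to 3 mismatches, on the strand of the gene. All 67 genes held such a match, against 7 of 4113 other protein-coding genes on these chromosomes (0.170%). It began 25 to 70 bases past the stop codon, with a median of 38. The letters matched exactly in 39 genes, none of them H4 genes. The stem of all 14 H4 genes differed in the same way and opened with GGCCC, which no gene of the other classes did. The stem-loops of 5 genes described below are shown as examples of 5 of the 10 forms found, with the 16 bases in capitals, 5 bases on each side in lower case, and the coordinates those of the capitals.
HIST1H1E, plus strand, chr6:26157323-26157338: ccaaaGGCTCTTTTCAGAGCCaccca
HIST1H4C, plus strand, chr6:26104545-26104560: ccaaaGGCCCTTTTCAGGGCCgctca
HIST1H2BK, minus strand, chr6:27114145-27114160: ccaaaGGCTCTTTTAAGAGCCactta
HIST2H2AC, plus strand, chr1:149858941-149858956: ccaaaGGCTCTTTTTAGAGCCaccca
HIST1H2AG, plus strand, chr6:27101294-27101309: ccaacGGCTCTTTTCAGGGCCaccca
The last letter of the loop, before AGAGCC or AGGGCC, varied between members. The form seen in HIST1H4C was held by 9 H4 genes, and the form seen in HIST1H2BK by 9 genes of the other classes. HIST2H2AC and HIST1H2AG were each the only gene with their form.

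The level of each gene is given first as TPM, a measure of transcript number that divides reads by transcript length and has an equal sum in both libraries. A gene with TPM of at least 1 in both replicates was called detected. This held for 34 of the 42 genes, or 23 of 30 in HIST1, 8 of 8 in HIST2, 2 of 3 in HIST3 and the single gene of HIST4. By the same rule 63.6% of all protein-coding genes and 27.7% of all genes were detected. The 42 genes together reached a TPM of 1573 in replicate 1 and 1955 in replicate 2, which is 0.176% ± 0.0270 of all TPM (SD, n = 2). Few genes carried most of this, as the highest gene held 20.9% of the summed TPM, the highest 5 held 53.1% and the highest 10 held 69.1%.

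**Figure D1:**
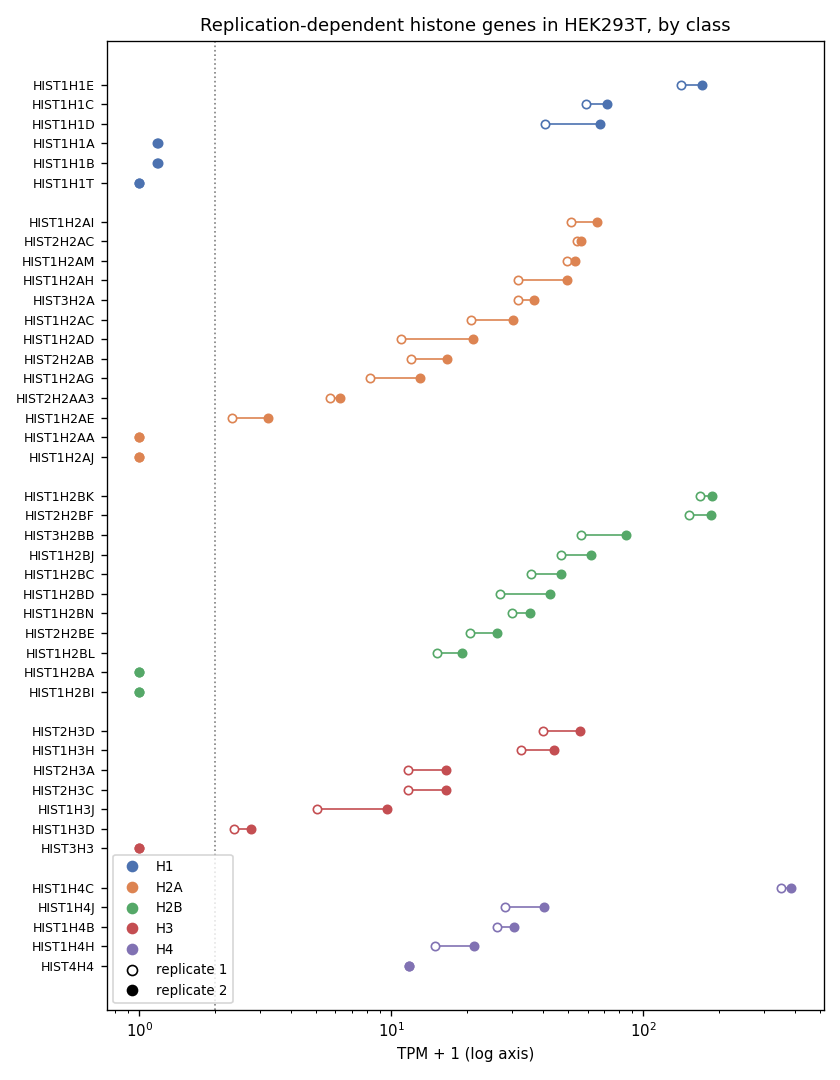
TPM + 1 of the 42 histone genes on a log axis, ordered within class by mean TPM. Open points are replicate 1, filled points replicate 2, lines join the replicates, and the dotted line marks a TPM of 1. HIST1H4C stood highest with 352 and 385, and 8 genes lay left of the dotted line.

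Linker histones of the H1 class bind the DNA between nucleosomes. HIST1H1E, which codes for H1.4, had TPM values of 139.6 in replicate 1 and 169.7 in replicate 2. HIST1H1C (H1.2) followed with 58.2 and 70.7 and HIST1H1D (H1.3) with 39.7 and 66.3. HIST1H1E was above the other H1 genes in both libraries, while the ranges of HIST1H1C and HIST1H1D overlapped. HIST1H1A (H1.1) and HIST1H1B (H1.5) had 1 count in each library, and the testis gene HIST1H1T had none. The posterior SD of their counts, a measure of how firmly reads were assigned among genes, was 0 for all 6 H1 genes in both libraries. Thus 3 of the 6 H1 genes held nearly all of the H1 signal in these libraries.

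H2A and H2B form the dimers that flank the central part of the nucleosome. The highest H2A gene by mean TPM, HIST1H2AI, had TPM values of 50.8 and 64.5 and held 18.9% of the TPM of the H2A genes with a row. HIST2H2AC had 53.5 and 55.5, and HIST1H2AM had 48.6 and 52.4. The ranges of these 3 genes overlapped. HIST1H2AC and HIST3H2A lay in the middle of the class, and HIST1H2AD had 9.96 and 20.1, the value of replicate 2 being above that of replicate 1. At the low end HIST1H2AE had 5 and 8 counts, and HIST1H2AA and HIST1H2AJ had no counts. HIST1H2AG is a case where the scale matters. It had 117.7 and 189.1 estimated counts, more than HIST1H2AH in each library (93.9 and 143.6), yet a lower TPM (7.20 and 12.02 against 30.8 and 48.9). The tables gave HIST1H2AG a transcript of 2239 nt and HIST1H2AH one of 457 nt, and the annotation used here places the end of HIST1H2AG 5 bases past its stem-loop.

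H2B was the class with the highest summed TPM. HIST1H2BK had TPM values of 166.0 and 186.3, and HIST2H2BF had 150.1 and 184.7. The ranges of both genes overlapped, and each lay above every other H2B gene in both libraries. HIST3H2BB followed with 55.7 and 84.1 and HIST1H2BJ with 46.1 and 61.1. HIST1H2BD had 25.9 and 41.7, and HIST1H2BN had 29.1 and 34.6, with ranges that overlapped. The lowest detected H2B gene was HIST1H2BL with 14.2 and 18.1. No counts were found for HIST1H2BA, a testis gene, or for HIST1H2BI. All 9 H2B genes with reads had fractional counts, so each shared some reads with other genes. The annotated span of HIST1H2BC covers HIST1H4C on the opposite strand, but its transcript in the tables was 571 nt long and the counts of HIST1H4C had a posterior SD of 0 in both libraries.

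H3 and H4 form the tetramer at the centre of the nucleosome. Among the 7 H3 genes with a row, HIST2H3D had TPM values of 38.9 and 55.2 and HIST1H3H had 31.6 and 43.3. HIST2H3A and HIST2H3C had the same estimated count, 127.4 in replicate 1 and 178.0 in replicate 2. The posterior SD of these counts was 69.6 and 98.0 for HIST2H3A and 69.6 and 97.7 for HIST2H3C. Their reads were thus split evenly and the level of either copy alone is not known. The estimated count of each was above that of HIST2H3D (105.15 and 143.8), yet the TPM was lower (10.6 and 15.4). The deposited transcript length was 1656 nt for each copy and 411 nt for HIST2H3D. HIST1H3J had TPM values of 4.05 and 8.64 and HIST1H3D 1.38 and 1.77, both below the other detected H3 genes. Part of HIST1H3J overlaps HIST1H2AM on the same strand. HIST3H3, a testis gene, had no counts.

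HIST1H4C was the highest of all 42 genes with TPM values of 352 and 385, from 963 and 1014 whole counts, and it lay above the second gene in both libraries. It held 80.6% of the TPM of the 5 H4 genes. HIST1H4J had 27.2 and 39.3, HIST1H4B had 25.2 and 29.7, HIST1H4H had 13.8 and 20.4, and HIST4H4 had 10.7 and 10.7. The ranges of HIST1H4J and HIST1H4B overlapped. HIST1H4J had whole counts, 66 and 92, but their posterior SD was 5.81 and 11.33. Whole counts thus did not always mean a firm assignment of reads. All 5 H4 genes were detected, whereas 9 H4 genes were not analysed here.

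Over the detected genes in order of mean TPM, 30 of 33 neighbouring pairs had replicate ranges that overlapped. The exceptions were HIST1H4C above HIST1H2BK, HIST1H1E above HIST3H2BB, and HIST2H2AA3 above HIST1H2AE. For the 6 genes with no counts in either library, a count of 0 allows up to 3 counts, which is 0.283 CPM (counts scaled to the library total) in replicate 1 and 0.297 in replicate 2. These limits and the 95% intervals below cover counting error only, because reads copied by PCR are not independent molecules. They also leave out read assignment, and for HIST1H2AJ, 1 of the 6, the posterior SD of the count was 3.01 and 3.28. The level of HIST1H2AJ may thus lie above its limit.

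Summed by class, H2B held 34.6% ± 0.339 of the TPM of the 42 genes (SD, n = 2), H4 26.0% ± 1.73, H2A 17.3% ± 0.291, H1 15.4% ± 0.413 and H3 6.66% ± 0.689. The steps from each class to the next in this order were larger than the spread of the shares between the libraries. The place of H4 came from 1 gene, since H4 held 6.33% without HIST1H4C. On estimated counts, which are not scaled by length, H1 held 20.8% and H4 17.8%, so the order of these classes turned. Class sums are also limited by the genes not tied to a row, most of all for H3 and H4.

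The genes lie in 4 places. HIST1 on chromosome 6 was divided at gaps of more than 300000 bp into 3 parts, chr6:25723625-26285866 with 31 annotated genes, chr6:27093676-27115341 with 5 and chr6:27775257-27861669 with 16. HIST2 lies at chr1:149754245-149859515 with 11 genes, HIST3 at chr1:228612546-228650805 with 3, and HIST4 is the single gene HIST4H4 at chr12:14920933-14924065. HIST1 held 74.6% ± 0.380 of the summed TPM, HIST2 19.0% ± 0.0231, HIST3 5.81% ± 0.450 and HIST4 0.615% ± 0.0933 (SD, n = 2). Within HIST1 the first part held 45.5% of the TPM of the 42 genes, the second 15.8% and the third 13.2%. The second part is short, and its 4 genes with a row reached a summed TPM of 250.1 and 308 while 9 genes of the third part reached 205.6 and 261. It holds HIST1H2BK, HIST1H2BJ, HIST1H2AH and HIST1H2AG.

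The clusters differed in their mix of classes among the genes with a row. The 2 annotated H4 genes of HIST2 were not tied to a row, so the H4 level of HIST2 was not measured here. In HIST1, 3 of 10 H3 genes and 4 of 11 H4 genes were tied to a row. All H1 genes lie in HIST1, where H4 led with summed TPM values of 418 and 474, followed by H2B with 316 and 388. HIST1H4C made up most of the H4 sum, and on estimated counts H1 was highest in HIST1 with 1282 and 1594, against 1177 and 1388 for H2B and 1128 and 1229 for H4. In HIST2 the H2B genes led with 169.7 and 209.9, most of it from HIST2H2BF, while HIST2H2BE had 19.6 and 25.2. HIST2H2AC was the highest H2A gene there, and HIST2H2AB had 11.01 and 15.6 and HIST2H2AA3 4.73 and 5.24. HIST2H2AA3 has a near-identical neighbour copy, HIST2H2AA4, that was not tied to a row. H3 genes of HIST2 reached 60.1 and 86.0, against 37.0 and 53.7 for the 3 HIST1 genes with a row. In HIST3, HIST3H2BB and HIST3H2A (30.7 and 35.7) were detected and HIST3H3 was not.

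**Figure D2:**
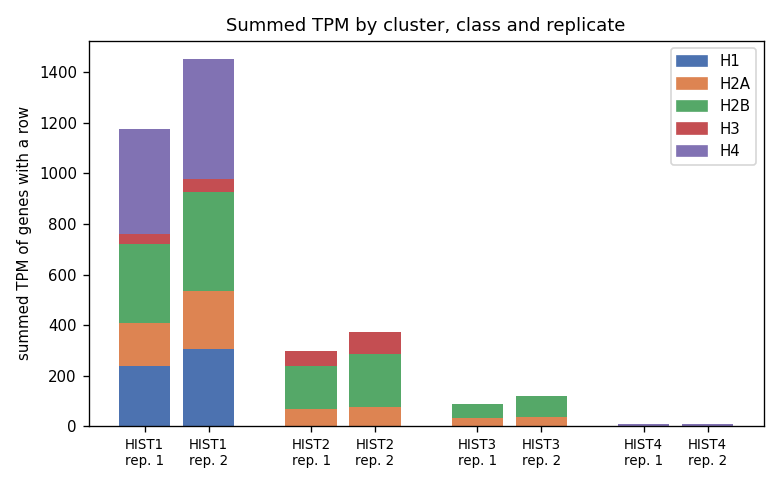
Summed TPM of the histone genes with a row in each cluster, stacked by class, with 1 bar for each replicate. HIST1 reached 1177 and 1453, HIST2 299 and 372, HIST3 86.4 and 119.8, and HIST4 10.7 in both. The 2 H4 genes of HIST2 were not tied to a row and are not in its bars.

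Since the libraries were made from RNA selected for poly(A) tails, the annotated gene ends were set beside the levels. In 28 of the 42 genes the annotated end lay 1 to 8 bases past the stem-loop, and in 14 it lay 285 to 37155 bases past it. The longer ends belonged to 7 of 11 H2B genes, 4 of 13 H2A genes, 2 of 5 H4 genes, 1 of 7 H3 genes and none of the 6 H1 genes. HIST1H2BC (37155 bases), HIST2H2BF (29195) and HIST3H2A (22592) had the longest. These distances run along the genome to the annotated gene end and are not transcript lengths. The deposited transcript lengths of these genes in replicate 1 were 571, 633 and 496 nt, against 2223 nt for HIST2H2BE. The split is thus one of annotated gene ends, and not of the ends of the transcripts that were counted. Genes with longer ends had a median TPM of 32.5 and a range of 0 to 167, and those ending at the stem-loop had a median of 14.2 and a range of 0 to 368. Spearman's correlation between the bases past the stem-loop and mean TPM was 0.05 across the 42 genes, which share their libraries and some of their reads. The genes that ended at the stem-loop held 70.0% of the summed TPM in replicate 1 and 68.2% in replicate 2. HIST1H4C, HIST1H1E and HIST1H1C are among them. The tables rest on another annotation, and for 5 of these 28 genes the transcript length in replicate 1 was over 50 nt longer than the whole gene here. They were HIST1H2BK (572 nt), HIST1H2AG, HIST1H3D (865 nt), HIST2H3A and HIST2H3C (1656 nt each). The other 23 genes held 57.5% and 56.4% of the summed TPM.

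Many H2A and H2B genes stand head to head and share the stretch between their starts. In the annotation 10 such pairs began within 500 bp of each other, 170 to 251 bp apart, and in 7 pairs both genes were tied to a row. The pair of testis genes HIST1H2AA and HIST1H2BA had no counts on either side. In the other 6 pairs both genes were detected, and H2B was higher in TPM in 4 and H2A in 2. Both libraries gave the same direction in all 6 pairs, and the median of log2(TPM + 1) of H2A minus that of H2B was -0.81 in replicate 1 and -0.93 in replicate 2.

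The widest gap between pair members was at HIST1H2AG and HIST1H2BJ, where HIST1H2BJ was 6.40 times higher in TPM in replicate 1 and 5.08 times in replicate 2. The gap was not seen in estimated counts, which were 117.7 and 189.1 for HIST1H2AG and 124.9 and 168.2 for HIST1H2BJ. HIST1H2BK was 5.39 and 3.81 times higher than HIST1H2AH, and there counts and TPM pointed the same way. HIST1H2BC (34.7 and 46.3) was 1.76 and 1.58 times higher than HIST1H2AC (19.8 and 29.3), and HIST3H2BB was 1.81 and 2.35 times higher than HIST3H2A. In the opposite direction HIST1H2AI was 3.59 and 3.56 times higher than HIST1H2BL, and HIST2H2AC was 2.73 and 2.20 times higher than HIST2H2BE. HIST2H2BE had more counts than HIST2H2AC (317.6 and 393 against 155.1 and 155.0) over a transcript of 2223 nt against 437 nt, so that pair turned when length was not taken into account.

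**Figure D3:**
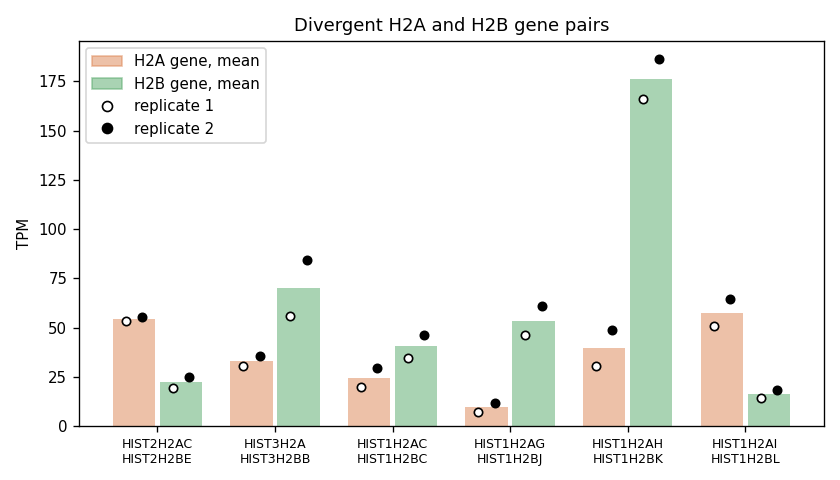
TPM of both genes of the 6 divergent pairs with reads. Bars are the mean of 2 replicates from 0, open points replicate 1 and filled points replicate 2. The H2B gene was higher in 4 pairs, most clearly HIST1H2BK with 166.0 and 186.3, and the H2A gene in 2.

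The sequences between the starts of 4 pairs are shown, a pair of each direction with an octamer motif and a pair of each direction without one. They run 5′ to 3′ on the plus strand of GRCh37. Capitals mark the octamer ATTTGCAT bound by OCT1, CCAAT, and the TATA motif TATAAA, each searched on both strands, where TTTATAAA counts as a TATA match on each strand.
HIST2H2BE to HIST2H2AC, chr1:149858233-149858467, octamer, H2A higher: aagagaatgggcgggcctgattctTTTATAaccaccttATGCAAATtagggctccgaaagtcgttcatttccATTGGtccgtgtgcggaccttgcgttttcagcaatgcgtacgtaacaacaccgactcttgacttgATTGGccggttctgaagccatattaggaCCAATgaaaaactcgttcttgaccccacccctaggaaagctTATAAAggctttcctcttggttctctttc
HIST1H2BK to HIST1H2AH, chr6:27114635-27114884, octamer, H2B higher: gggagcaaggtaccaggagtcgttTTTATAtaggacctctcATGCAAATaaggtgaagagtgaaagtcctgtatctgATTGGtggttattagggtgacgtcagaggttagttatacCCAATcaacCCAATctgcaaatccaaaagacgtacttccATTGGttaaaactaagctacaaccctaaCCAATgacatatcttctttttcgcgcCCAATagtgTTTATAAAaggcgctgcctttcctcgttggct
HIST1H2BL to HIST1H2AI, chr6:27775708-27775950, no octamer, H2A higher: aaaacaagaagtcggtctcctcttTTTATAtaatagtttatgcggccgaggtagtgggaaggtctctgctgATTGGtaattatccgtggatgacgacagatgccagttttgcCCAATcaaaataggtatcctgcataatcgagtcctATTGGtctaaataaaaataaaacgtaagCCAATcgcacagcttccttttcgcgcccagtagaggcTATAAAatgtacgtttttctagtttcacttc
HIST3H2A to HIST3H2BB, chr1:228645575-228645803, no octamer, H2B higher: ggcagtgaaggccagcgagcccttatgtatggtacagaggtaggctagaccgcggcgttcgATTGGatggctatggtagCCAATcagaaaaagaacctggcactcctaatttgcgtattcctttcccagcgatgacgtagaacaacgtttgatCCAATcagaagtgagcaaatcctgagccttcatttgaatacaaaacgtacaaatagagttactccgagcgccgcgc
All 10 stretches held CCAAT, 3 to 6 times, 7 held the octamer and 7 held TATAAA. The pair HIST3H2A and HIST3H2BB had neither the octamer nor TATAAA, although both genes were detected. Neither motif stood between HIST1H2AK, which was not tied to a row, and HIST1H2BN, which was detected (29.1 and 34.6). In TPM, the pairs with the octamer and reads had H2B higher in 3 and H2A higher in 1. The latter, HIST2H2AC over HIST2H2BE, turned on counts (155.1 and 155.0 against 317.6 and 393). Among the 3, HIST1H2BJ and HIST1H2AG had no common direction on counts in both libraries (124.9 and 168.2 against 117.7 and 189.1). The pairs without the octamer in which both genes had reads had 1 of each direction. No test was made over these 6 pairs.

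Promoter windows of RefSeq on GRCh38.p14, 250 bases before to 50 after the start, were matched by symbol for 62 of the 67 genes. The octamer stood in 11 of 16 H2A and 12 of 16 H2B windows, in 1 of 12 H3 windows and in none of the 6 H1 or 12 H4 windows, against 1.80% of 27305 windows of all genes. CCAAT stood in every H1, H2A, H2B and H3 window but in 2 of 12 H4 windows, against 35.7% of all windows. TATAAA stood in 42 of 62 windows and in 11.95% of all. The matches count letters only. Paired H2A and H2B genes share part of their windows.

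Replication-independent histones were measured in the same libraries for comparison. Genes were listed by name. Whether each of them, H2AFX included, gives only mRNA with a poly(A) tail was not examined. The list held 16 genes, 11 of them detected, and reached a summed TPM of 2074 in replicate 1 and 1944 in replicate 2. The ratio of this sum to that of the 42 replication-dependent genes was 1.32 in replicate 1 and 0.994 in replicate 2, with a mean of 1.16 that became 2.56 on estimated counts. H2AFZ (H2A.Z) had 574 and 535, H3F3B (H3.3) 452 and 433, H1FX (H1.10) 257 and 249, and H2AFX (H2A.X) 163.8 and 166.4. H2AFZ and H3F3B were each above HIST1H4C in both libraries. H3F3B alone was above the summed TPM of the 7 H3 genes with a row (97.1 and 139.7), a comparison limited by the 7 H3 genes not analysed here. CENPA, the H3 of centromeres, had 33.6 and 25.6. The RNA was selected for poly(A) tails, which replication-dependent histone mRNAs usually lack. These ratios and ranks are therefore those of the selected RNA, and relative levels in the cells were not measured.

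Of the 19 genes that make, process or degrade histone mRNA, 18 had reads at a detected level. They included NPAT (31.1 and 22.3), the coactivator of histone genes, SLBP (129.6 and 113.1), CASP8AP2 (28.7 and 27.9), the U7 snRNP subunits LSM10 (47.1 and 48.7) and LSM11 (7.94 and 7.29), and the nuclease CPSF3 (72.5 and 77.1). The gene for U7 snRNA, RNU7-1, passed the TPM threshold (7.19 and 7.20) on less than 1 estimated count in each library, which is under the limit that a count of 0 allows. All 12 histone chaperone genes were detected, among them NASP (254 and 260.2), which holds H3 and H4, and CHAF1A (89.8 and 87.01), a subunit of CAF-1.

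Of the 34 replication-dependent genes with at least 10 summed counts, 32 had more rounded counts in replicate 2 than in replicate 1 and 2 had equal counts, although replicate 2 held fewer counts in all. Counts were compared after scaling to library size with TMM factors, by an exact two-sided binomial test for each gene with Benjamini-Hochberg adjustment over all genes with at least 10 summed counts. This test compares the 2 libraries, not conditions. All 34 tested histone genes had a scaled ratio above 1 in replicate 2, against 50.3% of all 17920 tested genes, and the median ratio was 1.38 for the histone genes and 1.00 for all tested genes. At an adjusted p under 0.05, 10 of the 34 differed, all higher in replicate 2, against 3.88% of all tested genes (2.14% higher in replicate 2 and 1.74% higher in replicate 1). HIST4H4 had 45 counts in each library and HIST2H2AC had 155.1 and 155.0, and their ratios of 1.06 come from the scaling alone.

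HIST1H1D had the smallest adjusted p, with 216 whole counts in replicate 1 and 347 in replicate 2, a ratio of 1.70 (95% interval 1.43 to 2.02, adjusted p = 1.8e-07 in the exact binomial test). HIST1H2AG had a ratio of 1.69 (1.34 to 2.15), HIST1H2AH of 1.62 (1.24 to 2.12), HIST3H2BB of 1.53 (1.25 to 1.88) and HIST1H2BD of 1.501 (1.16 to 1.95). HIST1H2BD was near the threshold (adjusted p = 0.047 in the exact binomial test), and its call was lost with RLE scaling (0.060), with total counts (0.054) and with all genes of at least 1 count tested (0.079). HIST2H2BE (1.305), HIST2H2BF (1.25) and HIST1H1E (1.24) also passed. HIST2H3A and HIST2H3C passed with a ratio of 1.48 each, but they share 1 set of reads and are not separate evidence. The highest gene HIST1H4C had a ratio of 1.11 (1.02 to 1.22) and did not pass after adjustment (adjusted p = 0.22 in the exact binomial test). With a test restricted to genes of whole counts, 2 of 9 histone genes passed, HIST1H1D and HIST1H1E.

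**Figure D4:**
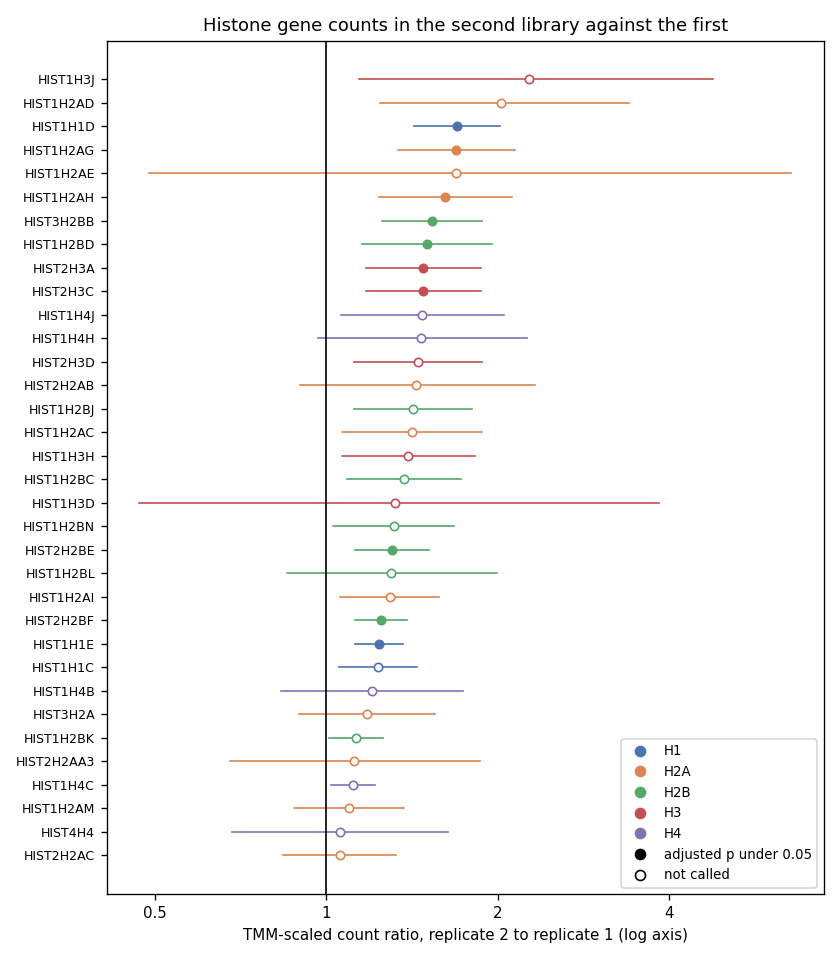
TMM-scaled ratio of counts in replicate 2 to replicate 1 for the 34 tested histone genes, on a log axis, with exact 95% intervals for counting error. Filled points passed the adjusted threshold. All points lay right of 1, from 1.06 for HIST2H2AC and HIST4H4 to 2.27 for HIST1H3J, which rests on 13 and 27.6 estimated counts.

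Summed over the 42 genes, the counts were 6249 in replicate 1 and 7585 in replicate 2, a scaled ratio of 1.28 (95% interval 1.24 to 1.33). By class the ratio was 1.47 (1.31 to 1.66) for H3, 1.32 (1.22 to 1.44) for H2A, 1.31 (1.22 to 1.41) for H1, 1.28 (1.21 to 1.35) for H2B and 1.15 (1.06 to 1.24) for H4. The intervals of H3 and H4 did not overlap, and the H4 value is mostly that of HIST1H4C. By cluster it was 1.27 (1.22 to 1.32) for HIST1, 1.29 (1.21 to 1.38) for HIST2, 1.40 (1.20 to 1.65) for HIST3 and 1.06 (0.683 to 1.63) for HIST4, and these intervals overlapped. Genes with annotated ends past the stem-loop had a ratio of 1.33 (1.25 to 1.41) and genes ending at it one of 1.26 (1.21 to 1.31), again with overlapping intervals. The ratio was therefore above 1 in each class and in HIST1, HIST2 and HIST3 beyond counting error.

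Other groups were summed in the same way to show whether they moved along. Replication-independent histones had a ratio of 0.985 (0.965 to 1.01). Of the 11 tested, only H1F0 passed, with 1979 and 1676 counts and lower in replicate 2. The genes for histone mRNA synthesis, processing and decay had a ratio of 1.01 (0.984 to 1.03). None of 18 tested passed in the exact binomial test with TMM, RLE or total-count scaling, and 2 had an unadjusted p under 0.05. Of all 17920 tested genes, 2377 had an unadjusted p under 0.05 in that test with TMM scaling. Histone chaperones had a ratio of 1.00 (0.985 to 1.02), and NAP1L1 alone passed, at 1.07 (adjusted p = 0.012 in the exact binomial test), a call lost with RLE scaling (adjusted p = 0.11). A list of 15 S phase genes added after the data were seen, with PCNA, MCM2 to MCM7 and RRM2 among them, had a ratio of 0.991 (0.975 to 1.01). None of the 15 passed under any of the scalings, and 2 had an unadjusted p under 0.05, beside the 2377 of 17920 given above. The snRNA, snoRNA and scaRNA genes, a group of small RNAs without poly(A) tails that was also added after the data were seen, had a ratio of 1.16 (1.09 to 1.23), with 2068 and 2271 counts and 33 of 54 tested genes above 1. Whether the selection of poly(A) RNA or the small-RNA share has a part in the histone difference was not tested, and in bulk samples more cells in S phase and more histone RNA per cell cannot be told apart.

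**Figure D5:**
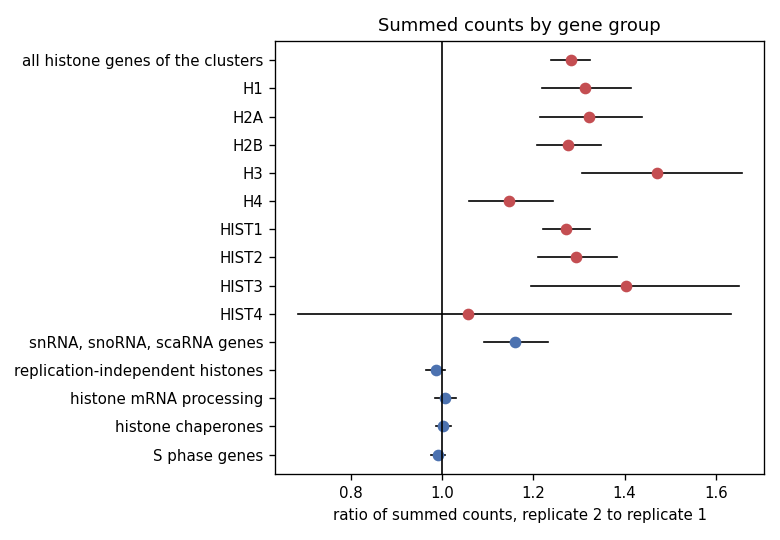
Ratio of summed, TMM-scaled counts in replicate 2 to replicate 1 with exact 95% intervals for counting error. Red points are the replication-dependent histone genes, their classes and clusters, and blue points are the other groups. The 42 histone genes lay at 1.28, the small RNA genes at 1.16, and the other groups between 0.985 and 1.01.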

How the data were processed

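Poly(A)+ RNA of HEK293T cells was made into 2 libraries with the NEBNext Ultra II RNA kit and sequenced on a HiSeq1500. Per the labels and the submitters' processing notes, the authors trimmed reads with Trimmomatic 0.36, aligned them with STAR 2.6.1c to hg19 (GRCh37.p13) and ran RSEM 1.3.1. The study's methods name featureCounts for counting, whereas the deposited columns are those of RSEM. Estimated counts were deposited by the authors, with a read that fits several genes shared out among them, so near-identical histone genes have uncertain single values. No source used here says if reads were counted by strand. The deposited TPM and FPKM values divide reads by transcript length. The posterior SD of a count is a score deposited by the authors. A further table has the authors' values for pooled reads and gave no result.

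Genes were tied to GENCODE release 44 names on GRCh37 by gene identifier, for 36 of the histone genes, or by transcript identifier, for 6. Rows with no such gene numbered 2091 of 57736 and held 2.85% and 3.11% of the TPM. The members, lists and alternatives were chosen with earlier results of these data known. Any member could be named. Described singly were the top genes of each class by mean TPM, all HIST2, HIST3 and HIST4 genes, the genes of divergent pairs, genes that differed between the libraries and genes with no counts. Other genes came from lists of replication-independent histones, histone mRNA processing and decay, chaperones and kidney markers. Of the kidney list, 6 genes had no counts in either library.

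Libraries were compared by an exact binomial test (scipy 1.17.1) of rounded counts with TMM factors from edgeR 4.0.16 in R 4.3.3 and Benjamini-Hochberg adjustment, and intervals are exact Clopper-Pearson. Both samples formed 1 group. Tested on simulated data for replicate 2 against replicate 1 over 17959 genes, the test recovered 161 of 200 genes changed 1.5-fold and called 9 unchanged genes. The simulated counts varied by counting error only, and the changed genes came from those with higher counts. Other spread between libraries and uncertain read assignment were not simulated, so these numbers need not hold for the real libraries. Alternatives were other thresholds, pseudocounts, scalings and filters, expected counts or posterior mean TPM in place of TPM, sums without HIST1H4C and leaving out each replicate.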

Additional observations from a re-analysis of the deposited data

Results flagged for a closer look

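Of 16 pseudogenes in the histone clusters, which no comparison above used, 2 held estimated counts above the 3 that a count of 0 allows in both libraries. HIST2H2BC had 6.10 in replicate 1 and 24.4 in replicate 2. H2BC19P had 31.7 in replicate 1 and 12.1 in replicate 2. The posterior SD was 7.47 and 7.80 for HIST2H2BC and 8.56 and 8.07 for H2BC19P, so the assignment of these reads is uncertain by as much as the lower counts or nearly so.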

How the results depend on the processing

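No paired analysis was possible because both libraries belong to 1 group. Of 79 values under an alternative, 54 were labelled as kept within their bounds, 25 as moved and 0 as reversed. Each value was labelled singly, so changes of order between values were not counted. The order of H1 and H4 turned on expected counts, and H4 became the lowest class without HIST1H4C. The ratio of replication-independent to dependent TPM, 1.16 on average, fell below 1 without replicate 1 and was still labelled as kept. Leaving out either replicate gave 34 detected genes, a share of all TPM of 0.157% and 0.196%, class shares of 15.1% to 15.7% (H1), 17.1% to 17.5% (H2A), 34.4% to 34.9% (H2B), 6.17% to 7.14% (H3) and 24.8% to 27.3% (H4), cluster shares of 74.3% to 74.8% (HIST1), 19.00% to 19.04% (HIST2), 5.49% to 6.13% (HIST3) and 0.549% to 0.681% (HIST4), a pair difference of -0.93 to -0.81, a ratio of replication-independent to dependent TPM of 0.994 to 1.32 and a Spearman's correlation of 0.036 to 0.055. With 1 library left, the libraries could not be compared.

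With expected counts in place of TPM, the share of the total was 0.0670%, the class shares were 20.8%, 16.2%, 37.0%, 8.27% and 17.8% for H1, H2A, H2B, H3 and H4, the cluster shares were 69.8%, 25.0% and 4.53% for HIST1, HIST2 and HIST3, the median pair difference was -0.74 and the ratio of replication-independent to dependent histones was 2.56. Without HIST1H4C the class shares were 19.5%, 21.9%, 43.9%, 8.42% and 6.33%, the cluster shares 67.8%, 24.1%, 7.35% and 0.780%, and the ratio 1.47. With posterior mean TPM the HIST2 share was 18.95%. Spearman's correlation was 0.0055 over the 26 genes with the exact stem-loop and 0.032 over the 34 detected genes. Among genes with whole counts alone, which leaves 9 histone genes to test, 2 differed between the libraries. The other scalings and filters gave 9 or 10. The summed ratio was 1.24 to 1.31 under the alternatives, which were chosen after seeing the data.

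Depth limits genes near 0, and reads of 50 bp cannot separate identical copies. The 25 genes not tied to a row limit every class and cluster sum.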
